A study of Rattus norvegicus with 7 samples.

Results

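Collagens are the proteins of the extracellular matrix that wind 3 chains into a triple helix, and each chain is encoded by its own gene. The genes described here are those whose symbol follows the pattern of a collagen chain (Col, a type number, the letter a, then a chain number), taken from RNA sequencing tables of rat hippocampus and hypothalamus. The rule found 24 chain genes among the 15805 gene symbols present in both tables. Of these, 16 averaged 1 or more FPKM (fragments per kilobase of transcript per 1000000 mapped fragments) over the libraries of either tissue, a minimum that 10736 of all symbols met. The genes were taken by symbol and not by their values, although where a symbol had several loci (Col1a2 and Col27a1) the locus of greatest average FPKM stood for it. Other chains, such as Col4a2, Col6a1, Col6a3 and Col12a1, were not analysed here.

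All 7 libraries came from male Sprague Dawley rats, 2 months old at the start, that ate an omega-3 fatty acid diet with docosahexaenoic acid (DHA) for 6 weeks. The hippocampus gave 4 libraries and the hypothalamus 3, numbered as replicates by the labels, which do not tie a library to an animal, so the spread between them may be technical. Libraries of chow-fed rats were not analysed here, so nothing below measures an effect of DHA. Each tissue has its own table, quantified separately, and differences between tissues cannot be told apart from differences between tables. Summed FPKM ran from 370020 to 391349 over the hippocampus libraries and from 443335 to 471484 over those of hypothalamus. Loci at 1 FPKM or more numbered 10666 to 11238 and 11119 to 11495.

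Fibrillar collagens (types I, II, III, V, XI, XXIV and XXVII) form or regulate banded fibres, type IV builds the sheet of basement membranes, type VI makes beaded filaments, and the fibril-associated types bind to the surface of fibres. In the brain, fibrillar collagen is known mainly from the meninges and from the fibroblasts around larger vessels, while type IV surrounds the capillaries. Neurons and glia express some chains themselves, mostly of the minor types.

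Promoter sequences were found for 19 of the 24 chains in RefSeq (assembly GRCr8), and 4 are shown because the chains had the contrasting patterns described below. Each is the stretch of 250 bases before the annotated start site, written 5′ to 3′ on the strand of the gene, with capitals marking matches to 3 motifs on either strand. The first is the GC box, searched as GGGCGG. The second is the CCAAT box, by its name. The last, known as the TATA box, was searched with the letters TATAAA. Overlapping matches run together.
Col11a2, chr20:4817649-4817898, minus strand: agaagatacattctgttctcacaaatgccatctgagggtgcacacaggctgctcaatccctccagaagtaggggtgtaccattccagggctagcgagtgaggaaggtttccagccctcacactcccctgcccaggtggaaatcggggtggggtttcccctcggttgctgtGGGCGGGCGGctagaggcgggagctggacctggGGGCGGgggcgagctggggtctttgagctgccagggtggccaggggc
Col18a1, chr20:11473395-11473644, plus strand: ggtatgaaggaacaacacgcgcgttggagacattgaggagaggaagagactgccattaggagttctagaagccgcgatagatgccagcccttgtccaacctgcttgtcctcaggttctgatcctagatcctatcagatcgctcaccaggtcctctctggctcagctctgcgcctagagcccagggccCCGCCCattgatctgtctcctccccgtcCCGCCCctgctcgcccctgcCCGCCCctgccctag
Col8a1, chr11:56246532-56246781, plus strand: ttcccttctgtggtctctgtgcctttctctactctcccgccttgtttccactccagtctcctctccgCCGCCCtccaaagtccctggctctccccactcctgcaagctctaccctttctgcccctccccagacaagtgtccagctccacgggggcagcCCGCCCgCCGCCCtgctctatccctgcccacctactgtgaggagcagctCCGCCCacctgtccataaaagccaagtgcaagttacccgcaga
Col9a2, chr5:139892548-139892797, plus strand: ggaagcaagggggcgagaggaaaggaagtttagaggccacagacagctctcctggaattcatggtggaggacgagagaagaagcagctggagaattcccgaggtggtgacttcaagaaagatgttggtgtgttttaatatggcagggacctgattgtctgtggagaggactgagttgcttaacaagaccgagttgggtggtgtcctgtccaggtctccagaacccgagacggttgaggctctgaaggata
All capitals in these 4 windows are GC boxes: Col8a1 held 4 matches, Col11a2 and Col18a1 held 3 each, and Col9a2 held none. Over the 19 chains, 11 had a GC box, 5 a CCAAT box and 3 a TATA box, where 32.4%, 34.3% and 13.1% of 27457 promoters of the same length held them. The chains with a TATA box were Col1a2, Col13a1 and Col17a1. The median GC content of the windows was 62% over the chains and 52% over all promoters. These matches describe letters only.

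Col4a3 and Col4a4, chains of the type IV network of specialised basement membranes, are neighbours that point away from each other with 412 bases between their start sites. The 88 bases below lie in both of their promoter windows and are given on the plus strand, on which Col4a3 is read, and they hold none of the 3 motifs.
Col4a3 and Col4a4, chr9:91323740-91323827, plus strand: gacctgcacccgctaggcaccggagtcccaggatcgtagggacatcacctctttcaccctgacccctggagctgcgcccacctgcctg
Despite this shared stretch their values had different patterns, although both were low. Col4a4 read 0.233, 0.227, 0.251 and 0.0658 FPKM in hippocampus replicates 1 to 4 and 1.04, 0.737 and 0.454 FPKM in hypothalamus replicates 1 to 3. All 3 hypothalamus libraries were thus above all 4 hippocampus libraries. Col4a3 read 0.103 to 0.246 FPKM in hippocampus and 0.137 to 0.173 FPKM in hypothalamus, with overlap.

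Because FPKM are scaled by transcript length, levels can be ranked across chains. In hippocampus, Col11a2 (a chain of fibrillar type XI) had the highest mean, 36.1 ± 16.8 FPKM (SD, n = 4), followed by Col1a1 at 22.3 ± 33.1, Col27a1 at 8.20 ± 3.44 and Col6a2 at 7.77 ± 6.53 FPKM. In hypothalamus, Col1a1 came first at 26.2 ± 22.8 FPKM (SD, n = 3), followed by Col11a2 at 18.8 ± 5.77, Col5a3 at 17.1 ± 8.36 and Col3a1 at 16.6 ± 12.6 FPKM. The place of Col1a1 rested on 1 library in each tissue: without hippocampus replicate 3 its mean was 5.72 FPKM, below the 7.68 FPKM of Col27a1, and without hypothalamus replicate 2 it was 13.5 FPKM, below the 18.3 FPKM of Col11a2. Neighbours in these orders mostly overlapped over libraries. Among the 13 chains that averaged 1 FPKM or more in hippocampus, the one gap between neighbours lay between Col5a1, lowest at 1.16 FPKM, and Col11a1, highest at 1.14 FPKM. In hypothalamus, all neighbours among the 16 chains above that level overlapped.

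**Figure D1:**
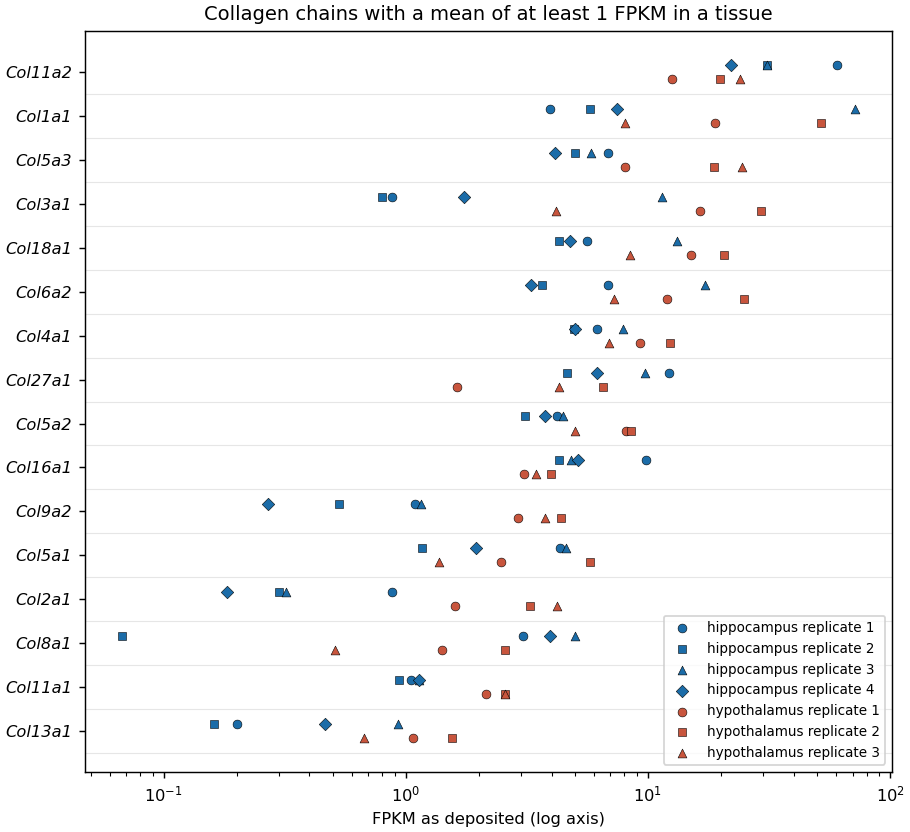
FPKM of the 16 collagen chains that averaged 1 FPKM or more in either tissue, on a log axis, with 1 point per library (blue for hippocampus, red for hypothalamus, the shape gives the replicate). Hippocampus replicate 3 (blue triangles) stands to the right for Col1a1, Col3a1, Col6a2 and Col18a1, and replicate 2 (blue squares) far to the left for Col8a1.

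The remaining 8 chains stayed under 1 FPKM in the mean of both tissues. They were Col1a2, Col4a3, Col4a4, Col9a1, Col14a1, Col15a1, Col17a1 and Col23a1. Col14a1, a fibril-associated chain, was the highest of them in hippocampus, at 0.278 to 0.899 FPKM. Col17a1, a transmembrane chain known from skin, did not exceed 0.144 FPKM in any library. Col9a1, a partner of Col9a2 in type IX collagen, read 0.0107 to 0.162 FPKM in hippocampus and 0.0811 to 0.213 FPKM in hypothalamus. Col23a1, a transmembrane chain, reached 0.181 FPKM in hippocampus, where replicates 2 and 4 had 0 listed, and 0.523 FPKM in hypothalamus. Col15a1, a basement membrane chain, had 0 listed in each hippocampus library and no more than 0.0368 FPKM in hypothalamus. Col1a2 was listed at 0 in all 7 libraries at both of its loci in each table. Its product joins that of Col1a1 in type I collagen, and Col1a1 read up to 71.9 FPKM, so no level is read from the value listed for Col1a2.

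Within each tissue, many of the chains were highest in the same library. Col1a1, which encodes the alpha-1 chain of type I collagen, read 3.95, 5.78, 71.9 and 7.43 FPKM in hippocampus replicates 1 to 4 (locus XLOC_004580). Replicate 3 was 12.6 times the mean of the other libraries. Col3a1, the chain of type III collagen that accompanies type I in soft tissue, read 0.875, 0.800, 11.4 and 1.74 FPKM (locus XLOC_028409), and replicate 3 was 10.0 times the mean of the others. Col6a2, a chain of type VI beaded filaments, read 6.86, 3.66, 17.3 and 3.29 FPKM. Col18a1, a basement membrane chain whose end fragment is endostatin, read 5.59, 4.30, 13.1 and 4.75 FPKM. For each of these 4 chains, replicate 3 was at least 2-fold above every other hippocampus library.

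Of the 13 chains that passed 1 FPKM on average in hippocampus, 9 (69.2%) were highest in replicate 3, against 18.2% of all 10033 symbols at that level. The others, Col11a2, Col16a1, Col27a1 and Col5a3, were highest in replicate 1, where 30.2% of all symbols were highest. Among the 8 chains that averaged 5 FPKM or more, replicates 1 and 3 were level, with 4 chains each. Replicate 3 was at least 2-fold above the mean of the other libraries for 5 chains (38.5%), against 2.88% of all symbols. These were Col1a1, Col3a1, Col6a2, Col18a1 and Col8a1. In replicate 1, 2 chains (15.4%) passed 2-fold, Col11a2 at 2.16 and Col16a1 at 2.07 times the mean of the others, against 2.59% of all symbols. No chain was highest in replicate 2 or replicate 4, where 18.2% and 33.4% of all symbols were, or passed 2-fold there, where 0.249% and 1.47% did. Of the 13 chains, 9 were lowest in replicate 2.

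In hypothalamus, replicate 2 held that place. Col1a1 read 18.9, 51.7 and 8.0 FPKM in replicates 1 to 3 (locus XLOC_004411), and Col3a1 read 16.3, 29.4 and 4.18 FPKM (locus XLOC_027002). Col6a2 read 11.9, 24.8 and 7.21 FPKM and Col18a1 read 15.0, 20.7 and 8.45 FPKM. For all 4 chains replicate 2 was highest and replicate 3 lowest. Of the 16 chains that passed 1 FPKM on average, 13 (81.2%) were highest in replicate 2, against 20.4% of all 10444 symbols. The other 3, Col2a1, Col5a3 and Col11a2, were highest in replicate 3, where 35.2% of all symbols were, and none was highest in replicate 1, where 44.4% were. Replicate 2 was at least 2-fold above the mean of the other libraries for 6 chains (37.5%), against 2.39% of all symbols, and these were Col1a1, Col5a1, Col3a1, Col8a1, Col6a2 and Col27a1. No chain passed 2-fold in replicates 1 or 3, where 3.11% and 1.1% of all symbols did. The 9 chains highest in hippocampus replicate 3 were all among the 13. Of the chains that passed 1 FPKM in hippocampus, however, only Col5a3 and Col11a2 were not, so a large overlap was likely in any case. Each tissue has 1 group of libraries, so these counts carry no test.

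**Figure D2:**
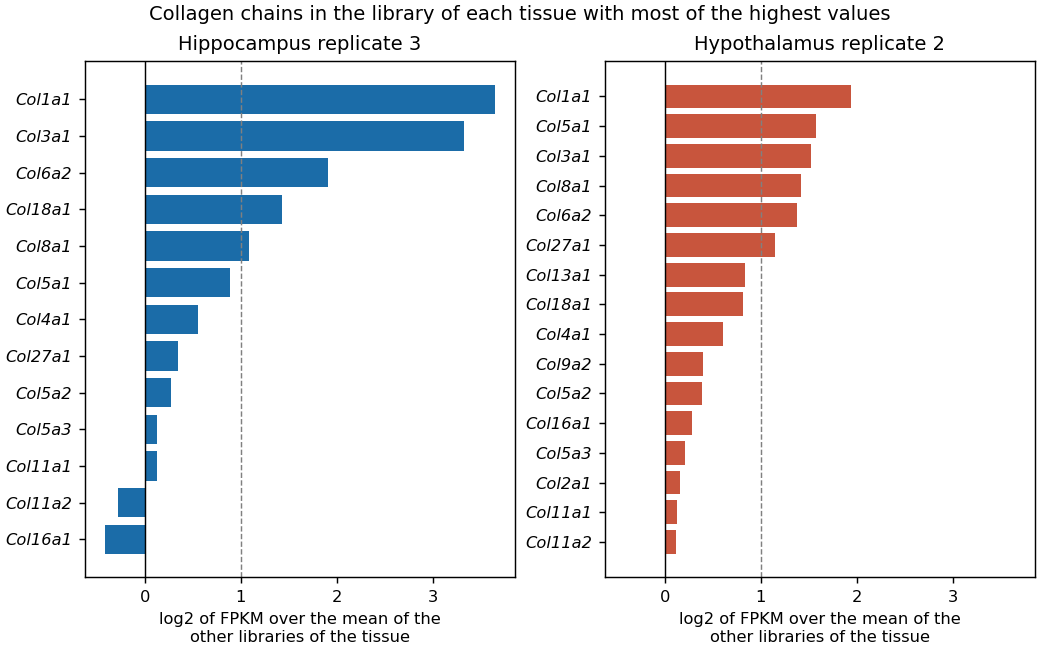
Log2 of a chain's FPKM over the mean of the other libraries of the same tissue, for hippocampus replicate 3 (left, 13 chains) and hypothalamus replicate 2 (right, 16 chains), with the dashed line at a 2-fold excess. Col1a1 leads in both, at 3.65 and 1.94, and Col11a2 and Col16a1 are below 0 in hippocampus replicate 3.

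The excess was uneven even among chains that share a fibre or a chromosomal neighbourhood. Col5a2 lies beside Col3a1 in the reference gene order and encodes a chain of type V collagen, which is incorporated into type I fibres. It read 4.20, 3.09, 4.46 and 3.75 FPKM in hippocampus and 8.10, 8.55 and 5.02 FPKM in hypothalamus. Its excess was 1.21-fold in hippocampus replicate 3 and 1.30-fold in hypothalamus replicate 2, where that of Col3a1 was 10.0-fold and 2.87-fold. Col4a1, the common basement membrane chain of capillaries, had an excess of 1.47-fold and 1.52-fold, at 6.15, 4.96, 7.86 and 4.98 FPKM in hippocampus and 9.23, 12.3 and 6.93 FPKM in hypothalamus. Col11a1, the partner of Col11a2 in type XI collagen, read 0.939 to 1.14 FPKM over the hippocampus libraries and 2.14 to 2.57 FPKM over the hypothalamus libraries, the narrowest spread of the chains above 1 FPKM in hippocampus.

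Col8a1, a short-chain network collagen of vessels and of the eye, stood apart in another library. It read 3.04, 0.0671, 5.0 and 3.95 FPKM in hippocampus, so that replicate 2 was nearly without it. In hypothalamus it read 1.41, 2.57 and 0.511 FPKM. Hippocampus replicate 2 was also the low library of the choroid plexus marker list. Its mean log2(FPKM + 1) over 10 of 11 genes was 0.93 there and 4.24, 5.22 and 4.41 in replicates 1, 3 and 4, with Ttr, the transthyretin gene, at 31.9 FPKM against 1967 to 5771 FPKM. In hypothalamus the list ran from 1.39 to 1.80. Otx2, a choroid plexus transcription factor on the list, was listed at 0 in all 7 libraries, and the part of choroid plexus RNA in the Col8a1 values was not tested.

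By mean log2(FPKM + 1), the fibroblast, mural cell, endothelial and choroid plexus lists shared their highest library in each tissue with the fibrillar chains. The order of the other libraries differed from that of the fibrillar chains. The lists of collagen folding, processing, receptor, basement membrane partner and proteinase genes, described below, had the same highest libraries. The pattern was thus not particular to a cell type. The mean log2(FPKM + 1) of 9 fibrillar chains, leaving out Col1a2, was 2.51, 2.02, 3.05 and 2.16 in hippocampus and 2.75, 3.57 and 2.81 in hypothalamus. The list for meningeal and perivascular fibroblasts (11 of 12 genes found) had a level of 2.35, 1.68, 4.08 and 2.53 in hippocampus replicates 1 to 4 and of 4.16, 4.74 and 2.73 in hypothalamus replicates 1 to 3, as mean log2(FPKM + 1). Its summed FPKM ran from 43.1 to 375 in hippocampus and from 104 to 558 in hypothalamus. Of its genes that passed 1 FPKM on average, 9 of 10 were highest in hippocampus replicate 3 and 10 of 10 in hypothalamus replicate 2. The shares over all symbols were 18.2% and 20.4%. Igf2, a growth factor gene expressed in the meninges, read 55.5, 5.14, 134 and 31.9 FPKM in hippocampus. Slc6a20, a transporter gene on the list, read 97.5 FPKM in hippocampus replicate 3 and at most 17.9 FPKM in the others. Dcn, which encodes the collagen-binding proteoglycan decorin, was the exception, at 20.7, 18.1, 39 and 54.2 FPKM, highest in replicate 4. Ogn, which encodes the matrix protein osteoglycin, stood at 0 throughout hippocampus and reached 0.165 FPKM in hypothalamus. None of the 10 genes compared was called between tissues under the rule given below for chains, by which 27.9% of all symbols were called in either direction.

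The mural cell list (9 of 10 genes), of smooth muscle and pericytes, was 4.37 in hippocampus replicate 3 and 2.77 to 3.08 in the others. It was 4.60, 4.87 and 3.49 in the hypothalamus libraries. Acta2, the smooth muscle actin gene, read 5.55, 90.4, 818 and 72.8 FPKM in hippocampus, and Tagln read 25.7, 18.7, 161 and 15.3 FPKM. Rgs5, also on the list, read 29.5, 33.2, 35.5 and 40.2 FPKM, so the excess in replicate 3 was not shared by all mural genes. The summed FPKM of the list ran from 89.3 to 1085 in hippocampus and from 162 to 730 in hypothalamus. Of its 9 genes, 5 were highest in hippocampus replicate 3, where 18.2% of all symbols were, and 6 in hypothalamus replicate 2, where 20.4% were. By the call rule, 0 of the 9 were called, against 27.9% of all symbols. The tissues overlapped for 5 of the 9. Rgs5 and the others were higher in every hypothalamus library, as were 24.4% of all symbols. The endothelial list (7 of 10 genes) was 4.03 in hippocampus replicate 3 and 3.62 to 3.69 in the others, and from 3.22 to 3.54 in hypothalamus. Of its 7 genes, 5 were highest in hippocampus replicate 3 and 3 in hypothalamus replicate 2, and Cldn5, Flt1 and Esam were called higher in hippocampus, against 14.5% of all symbols. Its summed FPKM had another order, with 172, 140, 171 and 133 in hippocampus and 103, 90.1 and 75 in hypothalamus, highest in replicate 1 of both. In bulk tissue, more cells of a type and more RNA per cell cannot be told apart, and the part of these cells in the collagen values was not tested. Most markers of the dissected tissues went with the labels, with Neurod6 at 59.0 to 77.0 FPKM in hippocampus and at most 1.13 FPKM in hypothalamus, all 3 hippocampal markers compared called higher in hippocampus, and all 8 hypothalamic markers called higher in hypothalamus. Of the other hippocampal markers found, Fibcd1 stood at 0 in all 7 libraries, and Spink8 was low, with means of 0.133 FPKM in hippocampus and 0.578 FPKM in hypothalamus. Of the pituitary genes, 4 of 4 compared were called higher in hypothalamus, against 13.4% of all symbols, with Cga at 70.4, 282 and 183 FPKM there and at most 0.0639 FPKM in hippocampus, while Prl was listed at 0 throughout.

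**Figure D3:**
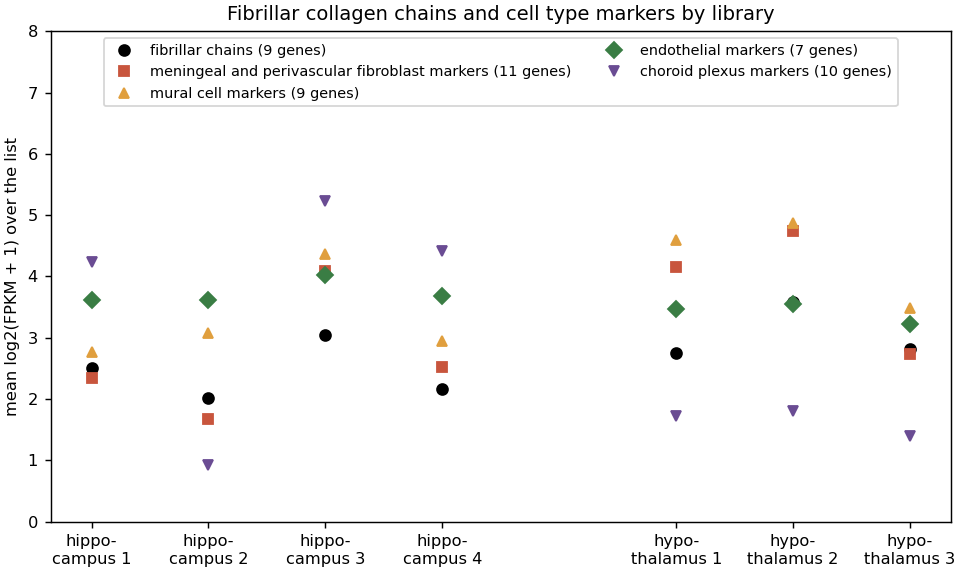
Mean log2(FPKM + 1) of 9 fibrillar collagen chains (without Col1a2) and of 4 marker lists in each library. Hippocampus replicate 3 and hypothalamus replicate 2 are the highest libraries of their tissue for all 5 lists on this scale (not for the summed FPKM of the endothelial list), and the choroid plexus list drops to 0.93 in hippocampus replicate 2.

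Genes for the making of collagen were examined in the same libraries. Of all symbols, 18.2% were highest in hippocampus replicate 3 and 20.4% in hypothalamus replicate 2. Of the folding and modification genes (12 of 16 found), 9 of 10 that passed 1 FPKM on average in hippocampus were highest in replicate 3, and 6 of 11 in hypothalamus replicate 2. Serpinh1, the collagen-specific chaperone, read 41.2, 21.6, 59.7 and 25.4 FPKM in hippocampus and 58.0, 93.8 and 51.8 FPKM in hypothalamus, highest in the same library of each tissue as Col1a1. Of the genes for processing and cross-linking (12 of 13 found), 3 of 8 were highest in hippocampus replicate 3 and 7 of 7 in hypothalamus replicate 2. Pcolce, the enhancer of procollagen C-proteinase, read 2.18, 1.33, 10.4 and 1.94 FPKM in hippocampus and 15.4, 28.7 and 6.95 FPKM in hypothalamus. Basement membrane partners such as laminins and nidogen (10 of 16 found) were highest in hippocampus replicate 3 for 7 of 8 genes and in hypothalamus replicate 2 for 5 of 8.

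The tissues were then compared. Values were first brought to a total of 1000000 per library, counted over symbols in both tables. A chain was called higher in a tissue when all of its libraries lay above all of the other tissue's and the means of log2(rescaled value + 1) differed by at least 2-fold. Of the 16 chains compared, 1 was called higher in hippocampus and 2 in hypothalamus, where 14.5% and 13.4% of all 10736 symbols were called (27.9% in either direction). These shares moved with the libraries used, as given below. Libraries did not overlap for 2 chains higher in hippocampus and 3 higher in hypothalamus, where 28.2% and 24.4% of all symbols had no overlap (52.6% in either direction), and the other 11 chains overlapped. Over all symbols, 1560 were called higher in hippocampus and 1439 in hypothalamus, and with FPKM as deposited 928 and 1819. The median difference, hippocampus minus hypothalamus, was −0.65 on the log2 scale over the chains and 0.05 over all symbols compared. It was −0.25 without hypothalamus replicate 2 and ran from −0.87 to −0.25 over the libraries left out in turn. In the comparison of all libraries, 11 of 16 chains (68.8%) were lower in hippocampus, against 48% of all symbols. Col2a1, Col9a2 and Col13a1 entered only through their hypothalamic mean and could hardly be other than lower in hippocampus, so these values are a description. Of the 13 chains that averaged 1 FPKM or more in both tissues, 8 (61.5%) were lower in hippocampus, with a median of −0.54, against 45.8% and 0.09 over 9741 symbols. Among the 9 fibrillar chains compared, 6 were lower in hippocampus, with a median of −0.59.

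Col11a2 was the chain called higher in hippocampus. Its FPKM were 60.5, 30.9, 31.0 and 22.0 in hippocampus (locus XLOC_016401) and 12.6, 19.7 and 24 in hypothalamus, so that the deposited values overlapped. After rescaling, the lowest hippocampus library was 62.9 and the highest hypothalamus library 54.0, and the difference was 1.17 on the log2 scale. The call was lost without hippocampus replicate 1, where the difference was 0.89, and without hypothalamus replicate 1, where it was 0.93. With FPKM as deposited it was 0.86, and with upper-quartile scaling 0.99, and the chain was not called under either.

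Col2a1 and Col9a2 were called higher in hypothalamus. Col2a1 encodes the type II collagen of cartilage and Col9a2 a fibril-associated chain that binds to type II fibres. Col2a1 read 1.60, 3.24 and 4.23 FPKM in hypothalamus and 0.879, 0.301, 0.320 and 0.183 FPKM in hippocampus, a difference of −1.86 on the log2 scale. Col9a2 read 2.91, 4.39 and 3.74 FPKM against 1.09, 0.532, 1.16 and 0.271 FPKM, a difference of −1.66. Both are low genes that passed the minimum in hypothalamus only, and their libraries did not overlap between tissues as deposited either. These calls were present under 15 of the 16 alternatives that compared each chain, the exception being a pseudocount of 5. Where a mean of at least 5 FPKM was required, both chains dropped out and were not called.

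Other chains separated the tissues by less, or overlapped. Col16a1, a fibril-associated chain, read 9.84, 4.29, 4.80 and 5.16 FPKM in hippocampus and 3.07, 3.97 and 3.44 FPKM in hypothalamus, without overlap, and its difference of 0.93 fell short of 2-fold. Col11a1 was higher in every hypothalamus library, with a difference of −0.71. Col5a3, a type V chain, read 6.84, 4.97, 5.82 and 4.15 FPKM in hippocampus and 8.01, 18.8 and 24.5 FPKM in hypothalamus, and its difference of −1.18 was not called because the rescaled values overlapped, 19.9 in hippocampus replicate 1 against 19.1 in hypothalamus replicate 1. It was called higher in hypothalamus with FPKM as deposited (−1.38), with upper-quartile scaling (−1.25), without hippocampus replicate 1 (−1.30), without hypothalamus replicate 1 (−1.63) and without both (−1.74). Col27a1, a fibrillar chain of cartilage, read 12.2, 4.64, 9.74 and 6.17 FPKM in hippocampus and 1.63, 6.54 and 4.27 FPKM in hypothalamus, a difference of 1.28 with overlap. Col5a1, the main chain of type V, had a hippocampal mean of 3.01 ± 1.72 FPKM (SD over 4 libraries) and a hypothalamic mean of 3.20 ± 2.27 FPKM (SD over 3). Col13a1, a transmembrane chain, averaged 0.439 ± 0.354 and 1.10 ± 0.441 FPKM, also with overlap. A second hippocampal locus of Col27a1 did not exceed 0.0772 FPKM.

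Col3a1 had a difference of −2.15, more negative than those of the called chains with all libraries in use, yet was not called. Under 6 alternatives Col2a1 was the more negative, for example with a pseudocount of 0.1 (−2.56 against −2.38). Hippocampus replicate 3, at 11.4 FPKM, lay above hypothalamus replicate 3, at 4.18 FPKM. Without hippocampus replicate 3, Col3a1 and Col18a1 joined the chains called higher in hypothalamus, which made 4 of 16, and Col16a1 joined Col11a2 in hippocampus, which made 2. Of all symbols, 15.2% and 14.8% were called in those directions. Col3a1 was also called without hypothalamus replicate 3 (−2.93), which made 3 of 16 higher in hypothalamus, where 14.6% of all symbols were. Without hippocampus replicate 2, 4 chains were called higher in hippocampus (Col11a2, Col16a1, Col27a1 and Col8a1), where 14.8% of all symbols were. Without hypothalamus replicate 2 there were 3 of 15 (Col11a2, Col16a1 and Col27a1), where 14.3% of all symbols were. Without hippocampus replicate 3 and hypothalamus replicate 2 together, an alternative chosen after seeing the data, 3 of 15 chains were called in each direction, where 14.8% of all symbols were called higher in hypothalamus and 14.7% in hippocampus. Those were Col2a1, Col3a1 and Col9a2 in hypothalamus and Col11a2, Col16a1 and Col27a1 in hippocampus.

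**Figure D4:**
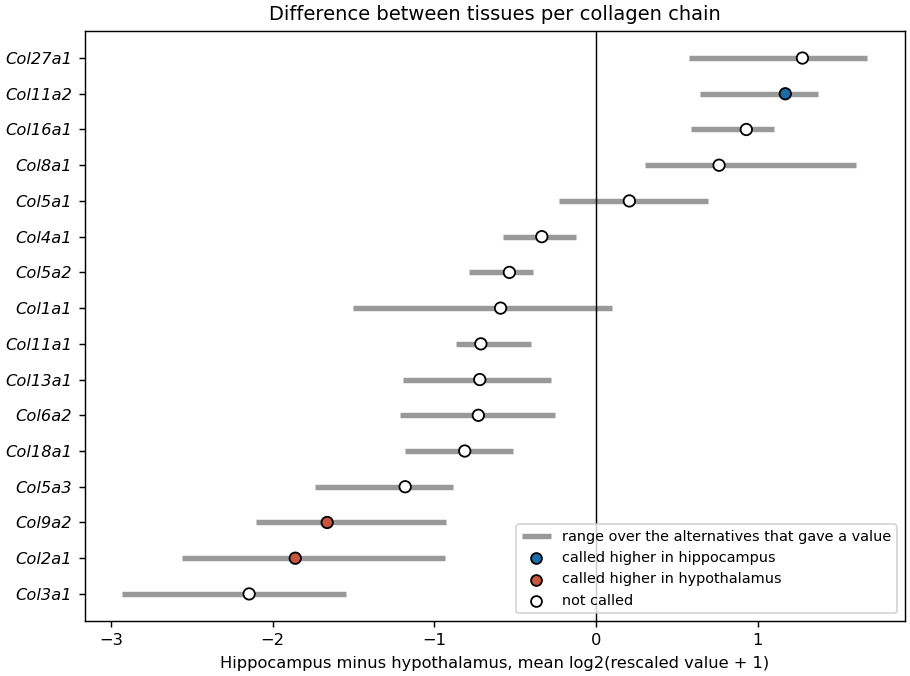
Difference between tissues in mean log2(rescaled value + 1) for the 16 chains, negative where hypothalamus is higher, with gray bars for the range over the alternatives. Filled points mark the 3 called chains, Col11a2, Col9a2 and Col2a1, while Col3a1, at −2.15, is open and its gray bar overlaps that of Col2a1.

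A ratio of chains within a library does not depend on how the library was scaled. Col1a1 over Col3a1, a pair chosen after its values were seen, was 4.52, 7.23, 6.29 and 4.26 in hippocampus replicates 1 to 4. It was 1.16, 1.76 and 1.92 in hypothalamus replicates 1 to 3. The geometric means were 5.44 and 1.58, and the tissues did not overlap although the level of Col1a1 itself ranged from 3.95 to 71.9 FPKM. Over all pairs of the 13 chains with at least 1 FPKM in both tissues, 16 of 78 ratios (20.5%) did not overlap. The share was 52.3% over all pairs of 9673 symbols, a part of the 9741 that averaged at least 1 FPKM in both tissues. A ratio without overlap was thus no rarity among genes at large. The ratio of Col11a2 to Col5a3, also chosen after its values were seen, was 5.29 to 8.85 in hippocampus and 0.979 to 1.57 in hypothalamus. Col1a1 and Col3a1 have 1 locus in each table, but the tables were built separately, and a difference in the transcript models behind the FPKM was not tested. Col1a1 also overlaps Sgca, a sarcoglycan gene, in the reference annotation. Sgca read 2.49, 2.49, 2.35 and 0.915 FPKM in hippocampus and 3.20, 4.36 and 2.52 FPKM in hypothalamus. Whether fragments were assigned by strand is not given in the sources used here.

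**Figure D5:**
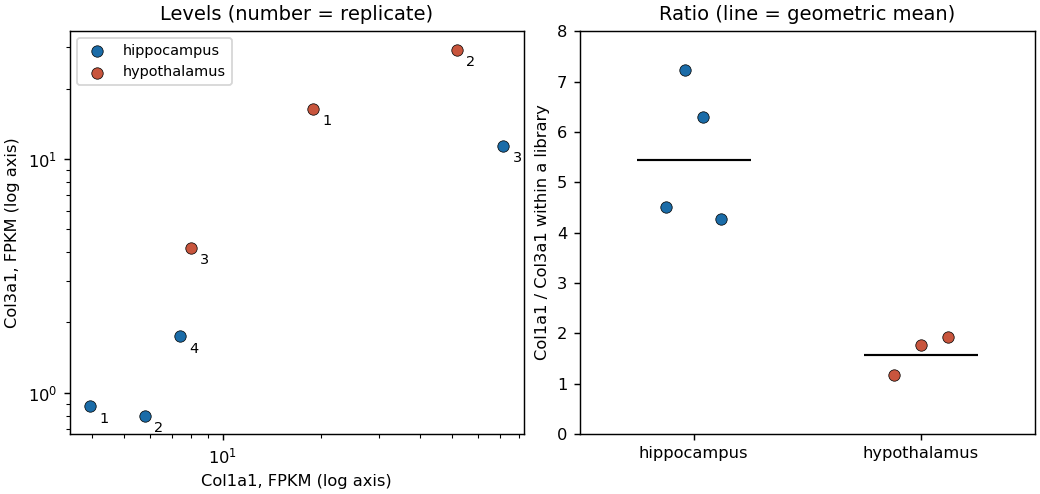
Left, Col3a1 against Col1a1 in FPKM on log axes, with 1 point per library and its replicate number. Right, the ratio of Col1a1 to Col3a1 within each library with the geometric mean as a line, 4.26 to 7.23 in hippocampus and 1.16 to 1.92 in hypothalamus.

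Genes that act on collagen were compared between tissues by the same rule, under which 14.5% of all symbols were called higher in hippocampus and 13.4% in hypothalamus. Among folding and modification genes, 1 of 11 compared was called higher in hippocampus and 3 in hypothalamus. P4ha1, a catalytic subunit of prolyl 4-hydroxylase, read 50.4 to 75.4 FPKM in hippocampus and 21.1 to 32.5 FPKM in hypothalamus. Plod1, a lysyl hydroxylase, read 5.13 to 9.54 FPKM in hippocampus and 20.1 to 32.8 FPKM in hypothalamus, and Plod2 and Crtap were called in the same direction. Among processing and cross-linking genes, 3 of 9 were called higher in hippocampus and 1 in hypothalamus. With so few genes a list, these counts are not read as differing from the shares over all symbols. Loxl2, a lysyl oxidase that cross-links collagen IV, read 14.4, 19.4, 17.4 and 14.4 FPKM in hippocampus and 1.47, 2.19 and 0.577 FPKM in hypothalamus. Loxl1 went the other way, at 0.657 to 3.46 FPKM in hippocampus and 6.82 to 24.6 FPKM in hypothalamus. Adamts3, a procollagen N-proteinase, read 4.23 to 5.71 FPKM in hippocampus and 0.353 to 0.542 FPKM in hypothalamus, and Tll1 was called in the same direction.

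Against 27.9% of all symbols called in either direction, none of the 5 collagen receptor genes compared was called, among them Itgb1 at 18.1 to 30.0 FPKM in hippocampus and 21.6 to 52.6 FPKM in hypothalamus, and Ddr1, a receptor kinase, at 18.7 to 31.6 and 21.9 to 43.3 FPKM. Of the 9 basement membrane partners compared, Sparc and Lamb3 were called higher in hypothalamus. Sparc, a collagen-binding matrix protein made by astrocytes and endothelium, read 312 to 494 FPKM in hippocampus and 998 to 1656 FPKM in hypothalamus. Of the 5 collagen-degrading proteinases compared, Mmp9 and Fap were called higher in hippocampus. Fap read 11, 0.921, 2.15 and 3.81 FPKM there and at most 0.176 FPKM in hypothalamus.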

How the data were processed

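RNA sequencing of 7 libraries was used, 4 of DHA hippocampus and 3 of DHA hypothalamus. The authors deposited FPKM, 1 table per tissue, with a status word per value per the file headers. The submitters' processing notes name TopHat, TopHat2, Bowtie, Bowtie2, Cufflinks and Cuffdiff and the build rn5. Versions, annotation and strand setting are not given in the sources used here. FPKM carry no counts, so no counting error was computed.

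Only loci marked OK in every library were used (leaving out 86 in hippocampus, 24 in hypothalamus), and the locus with the highest mean was kept per symbol. The pattern matched 26 and 25 rows. Differences are on the log2(value + 1) scale, which understates changes of low genes. Because the tables were quantified separately, no test was run across them, and a table holds 1 group, so no p-values are given. Alternatives were pseudocounts, filters, scalings, summed loci and left-out libraries. The symbol rule for the members uses no values, but the collagen chains as a subject, and the gene lists, were chosen with earlier results of these data known. Chains averaging 5 FPKM or more were described with every library and lower ones by mean or range, except that Col2a1, Col4a4, Col8a1 and Col9a2 are also given by library, a choice made after their values were seen. Of other lists, the 3 most abundant genes and those called or at 0 could be named, and a part of them is. Ogn, Spink8 and Sgca, outside that rule, were chosen after their values were seen.

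Python 3.11.15, pandas 2.3.3 and matplotlib 3.10.9 were used.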

Additional observations from a re-analysis of the deposited data

Results flagged for a closer look

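Among 25 results measured in the 4 hippocampus libraries, 13 chains and 12 lists, Dixon's test marked 5, in which the gap between an extreme library and its nearest neighbour took up most of the range. The test used FPKM for the chains and mean log2(FPKM + 1) for the lists, and the chains were not tested on the log scale. Chance gives about 1 in 20, or 1.25 of 25, if values are normally distributed, and chains and lists are not independent. That need not hold for FPKM, so the number marked is not read as an excess over chance. Hippocampus replicate 3 stood apart as the highest library for Col1a1 (ratio 0.949), Col3a1 (ratio 0.911) and Col18a1 (ratio 0.854). It was also the highest library for the endothelial marker list (ratio 0.830, just past the critical value), at a level of 4.03 against 3.62 to 3.69. Col16a1 was instead highest in hippocampus replicate 1 (ratio 0.843), at 9.84 FPKM against 4.29 to 5.16 FPKM. Groups of 3 were not tested, so the hypothalamus has no such entry.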

How the results depend on the processing

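The median difference between tissues over the chains kept its direction under all 17 alternatives, from −0.87 to −0.25, the lowest and highest both from leaving out 1 library. No called chain changed sign. Of 264 recomputed differences of single chains, 258 kept their sign, the others being those of Col5a1 and Col1a1. Chains called higher in hypothalamus (2) numbered 0 with a pseudocount of 5 or a mean of at least 5 FPKM required, 3 (adding Col5a3) with FPKM as deposited or upper-quartile scaling, and 2 to 4 with 1 library left out. Chains called higher in hippocampus (1) numbered 2 with a pseudocount of 0.1, 0 with FPKM as deposited, 0 with upper-quartile scaling, 0 without replicate 1 of both tissues, 3 without hippocampus replicate 3 and hypothalamus replicate 2, and 0 to 4 with 1 library left out. FPKM as deposited also moved the median of all symbols from 0.05 to −0.21 and the calls over all symbols to 928 in hippocampus and 1819 in hypothalamus.

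Of chains highest in a library, hippocampus replicate 3 held 9, which became 14 with no filter and 4 of 8 at a mean of at least 5 FPKM. Replicate 1 held 4, or 8 with no filter, and also 4 of 8 at a mean of at least 5 FPKM, so that replicate 3 no longer led, and replicate 4 held 0, or 1 with median-of-ratios scaling. Hypothalamus replicate 2 held 13, or 6 at a mean of at least 5 FPKM, and replicate 1 held 0, or 2 with no filter. With 1 library left out, the counts ran from 4 to 9, 9 to 12 and 0 to 4 for hippocampus replicates 1, 3 and 4, and from 0 to 7, 13 to 16 and 3 to 7 for hypothalamus replicates 1 to 3. The filters change how many chains are counted. No paired analysis was possible because the labels do not tie libraries with the same replicate number to an animal, and the tissues, quantified in separate tables, were not tested against each other. Depth is unknown, which limits what can be said of chains under 1 FPKM.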
